A study of Rattus norvegicus with 12 samples.

Results

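The interferon response and antigen processing genes form a set of 41 named genes, and 39 of them were found by symbol among the 17310 identifiers of the tables. All 39 reached 0.5 CPM (fragments of a gene scaled to the size of the library) in at least 1 library, and all 39 passed the filter on low counts. Ifi44l and Ifnar2 were not matched and are not analysed here. RNA was sequenced from dissected hypothalamus that contained the paraventricular nucleus (PVH), the nucleus whose neurons start the adrenal stress response, in wild-type Wistar rats aged 12 weeks. The 6 groups held 2 libraries each. They were rats after a sham adrenalectomy (sham), rats given high corticosterone (Cort) for 12 days (high Cort), rats 7 days after adrenalectomy (ADX), adrenalectomised rats with Cort supplement (supplemented ADX), and rats taken 1 h or 3 h after acute Cort (1 h acute and 3 h acute). Cort is the glucocorticoid that rat adrenals secrete. The labels do not say whether the acutely treated rats kept their adrenals, name no vehicle control, give no Cort dose, and do not say whether a library came from 1 animal or from a pool. The p-values below therefore rest on differences among libraries that may be technical in origin.

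Interferons are cytokines that cells release on sensing foreign nucleic acid. Type I interferon binds a receptor that contains Ifnar1 and signals through the kinases Jak1 and Tyk2 to a complex that contains Stat2 and Irf9, while interferon gamma binds Ifngr1 and Ifngr2. The factors then bind the interferon-stimulated response element (ISRE) or the gamma-activated site (GAS) near their target genes, among them antiviral proteins and the machinery that loads peptides onto class I molecules of the major histocompatibility complex. In brain, microglia, endothelial cells, astrocytes and neurons can all respond to interferon, and glucocorticoids are widely known to restrain inflammatory gene expression.

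The start regions of 8 members with an ISRE core are shown because the text below sets members with and without that core side by side. The 8 were picked by hand from 15 with a core. Gbp5, Psmb8, Psme2, Tap2, Ifih1, Ifitm3 and Dtx3l are not shown. RefSeq entries of the rat assembly GRCr8, covering 250 bases before to 50 bases after the annotated start, existed for 31 of the 39 members. The ISRE core searched, on both strands, was a pair of GAAA letters with any 2 bases between them. Capitals mark the matched core or its reverse complement in stretches of 60 bases, written 5′ to 3′ on the strand of the gene. In Oas1a and Bst2 a pair of matches overlap, so the capitals run on.
Irf7, chr1:205800058-205800117, minus strand: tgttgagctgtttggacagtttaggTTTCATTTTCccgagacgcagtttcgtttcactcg
Ifit3, chr1:241527257-241527316, plus strand: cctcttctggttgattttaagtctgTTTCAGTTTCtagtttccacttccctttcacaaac
Oas1a, chr12:41330403-41330462, plus strand: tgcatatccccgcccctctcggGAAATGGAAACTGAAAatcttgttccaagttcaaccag
Rsad2, chr6:48788233-48788292, minus strand: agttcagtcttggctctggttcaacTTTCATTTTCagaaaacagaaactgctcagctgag
Bst2, chr16:18255061-18255120, minus strand: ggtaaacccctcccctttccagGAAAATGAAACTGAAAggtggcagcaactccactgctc
Gbp2, chr2:234005667-234005726, plus strand: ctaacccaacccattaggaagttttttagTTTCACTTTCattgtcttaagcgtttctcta
Tap1, chr20:4668630-4668689, minus strand: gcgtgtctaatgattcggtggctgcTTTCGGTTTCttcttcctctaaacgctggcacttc
B2m, chr3:129549155-129549214, plus strand: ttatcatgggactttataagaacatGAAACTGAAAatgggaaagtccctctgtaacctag

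Of the 31 members with a RefSeq entry, 15 (48.4%) held an ISRE core, against 1312 of 33469 promoters in the table (3.92%). The GAS letters TTCNNNGAA, which read the same on both strands, were in 7 of 31 members (22.6%) and in 8.87% of all promoters. Both motifs occurred in Oas1a, Psmb8, Ifitm3 and Bst2, and in Bst2 they overlapped. The full glucocorticoid response element, AGAACA and TGTTCT with any 3 bases between them, was found in none of the 31 members and in 5 promoters of the table (0.0149%). The members were listed as interferon-responsive genes, so the share with an ISRE describes the list. A match is a run of letters in this window and was not tested as a binding site.

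Total fragments per library ran from 17674159 in 1 h acute replicate 2 to 36249006 in supplemented ADX replicate 1. A score of 11 thalamus markers, the mean log2 CPM of genes of the region beside the dissected tissue, was 6.33 and 6.87 in sham and 6.73 and 6.68 in high Cort. It was 6.09 and 6.26 in ADX and 6.18 and 6.13 in supplemented ADX, and lower again after acute Cort, at 5.83 and 5.13 (1 h) or 5.64 and 5.77 (3 h). High Cort replicate 1 stood apart in the 18S ribosomal RNA gene Rn18s, at 3486.1 CPM against 574.7 to 1726.0 CPM in the other libraries. All 17 microglia markers found were measured, with sums of 478.9 to 558.7 CPM, as were all 7 PVH neuron markers, with sums of 409 to 970.3 CPM. Only 2 of 16 lymphocyte markers found (Cd4 and Lck) and 2 of 9 neutrophil and monocyte markers found (Lyz2 and Csf3r) reached 0.5 CPM in any library.

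Most antiviral members were present at low levels while the receptors and their kinases were well expressed. FPKM values are fragments scaled to transcript length as well as library size, and allow levels to be compared between genes. B2m, the light chain of class I molecules, stood first of the 39 members. Its median FPKM was 124 over sham, high Cort and ADX and 138.7 over the other 3 groups, which appear to have been scaled separately. Jak1 came second at 77.71 and 76.18 FPKM, and no library of B2m overlapped any of Jak1 (119.6 to 146.9 against 73.67 to 79.52 FPKM). Ifnar1, Stat3 and Psme1 followed at medians of 32.57 to 35.29 FPKM, and their ranges overlapped. At the other end stood Oasl, a relative of the 2′-5′ oligoadenylate synthetases, at 0.3584 and 0.3916 FPKM.

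**Figure D1:**
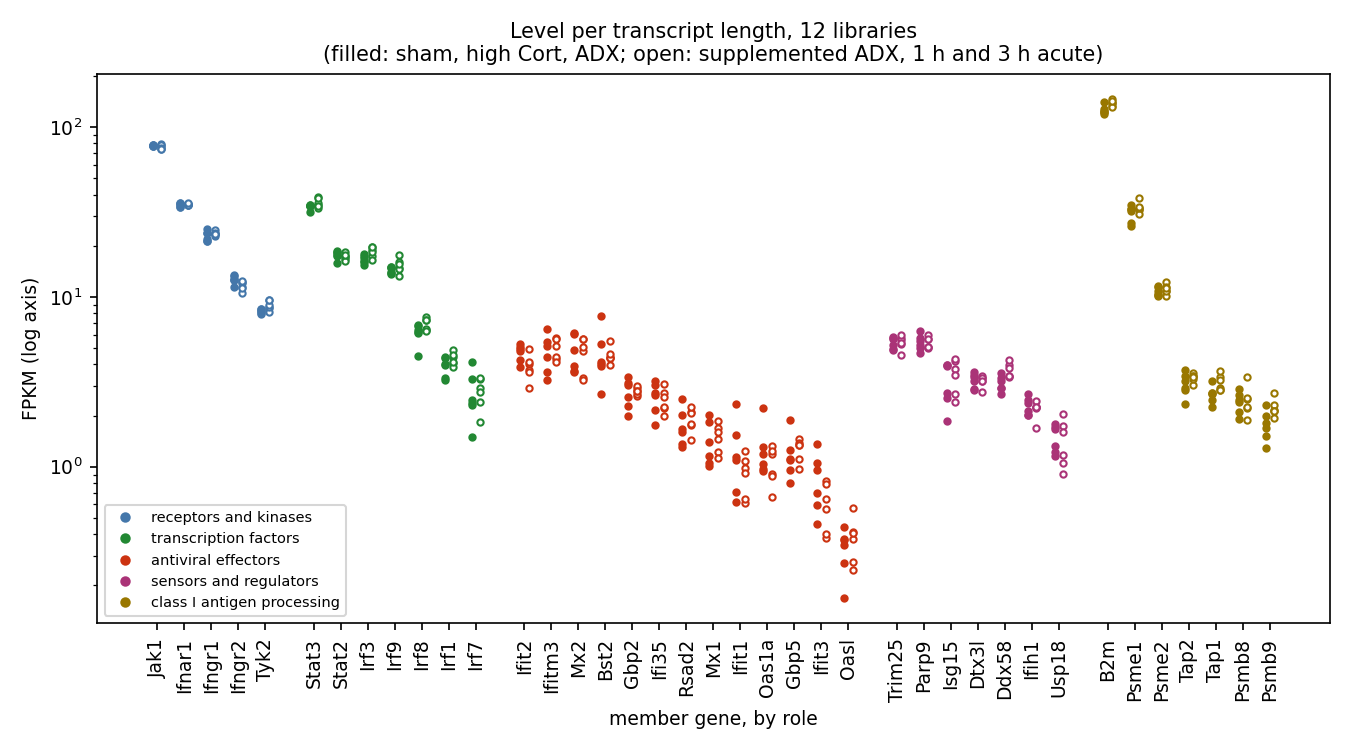
FPKM (log axis) of the 39 members in each of the 12 libraries, with members grouped by role and ordered by level. Filled points are sham, high Cort and ADX, and open points the 3 groups that appear to have been scaled in another run. B2m lies between 119.6 and 146.9 FPKM and Oasl between 0.1679 and 0.5743 FPKM.

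In CPM, 14 of the 39 members had a median under 5, and 9 of these were antiviral effectors. The ratio of the highest to the lowest of the 12 libraries had a median of 1.64 over the members, against 1.29 over the 12838 tested genes with a count in every library. It was lowest in the receptors and kinases, at 1.071 to 1.256 for Ifnar1, Ifngr1, Ifngr2, Jak1 and Tyk2. It was highest in the antiviral effectors, at 1.723 to 3.846, with Ifit1 the most variable. The effectors were also the lower group in level, which widens a ratio by counting error alone. Data were simulated for all 12 libraries from a single mean per gene, with genes changed in high Cort alone. In high Cort against sham the test then recovered 87.4% to 92.3% of 2-fold changes among all genes. Under 5 CPM it recovered 42.9% to 56.1% (5 simulated data sets of 12789 to 12801 tested genes). Genes were drawn independently, so replicate differences shared by several members, described below, were not simulated.

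**Figure D2:**
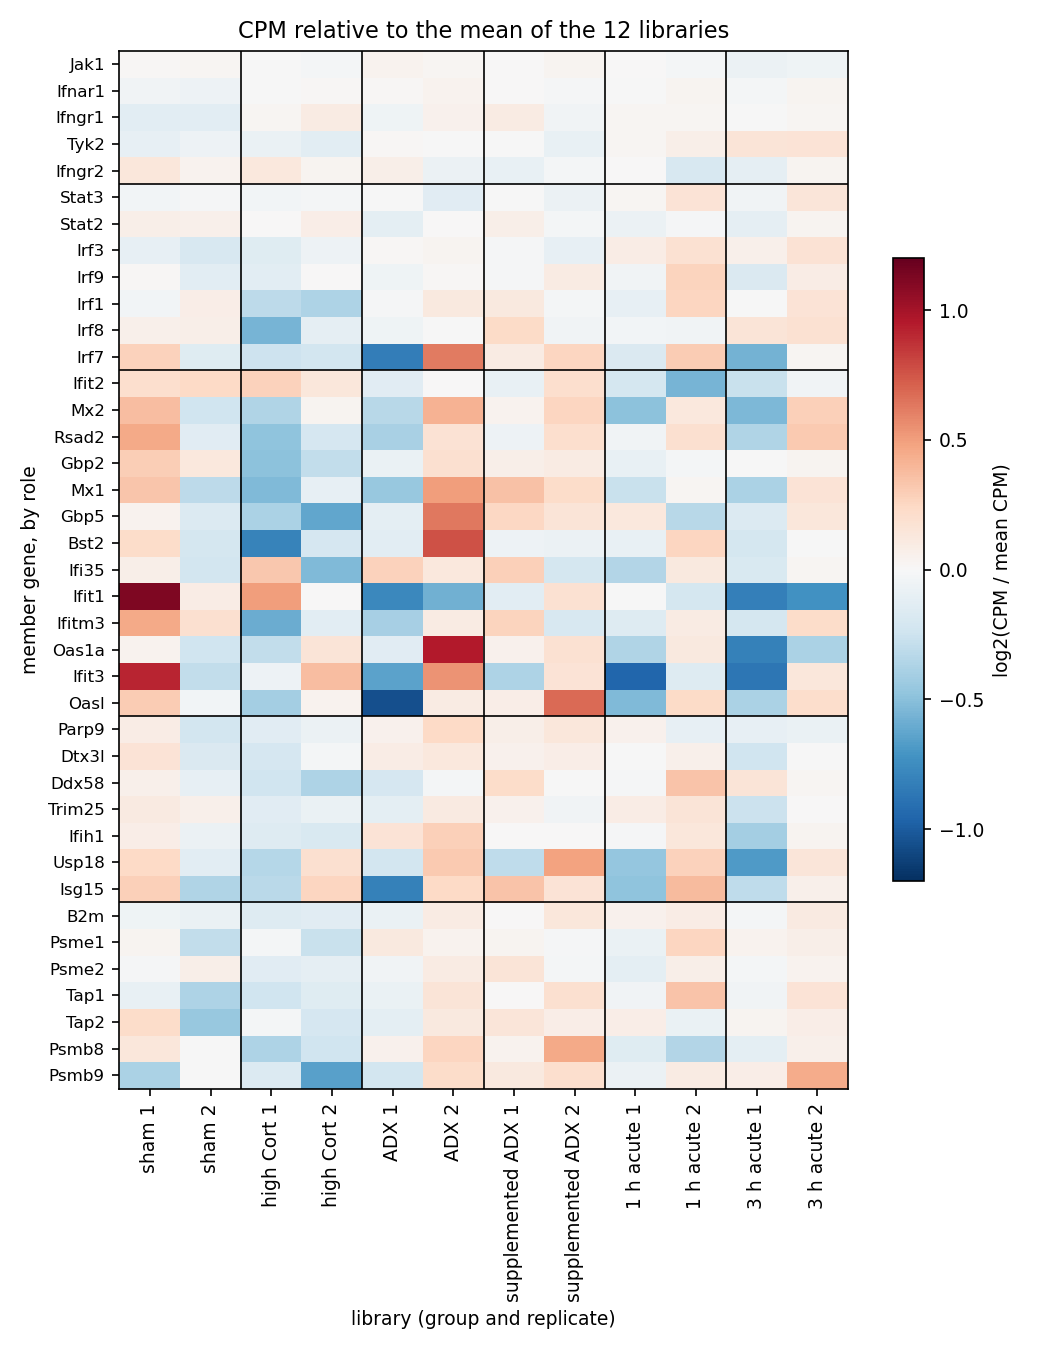
Log2 of each member's CPM over its mean of the 12 libraries (color), with libraries in columns by group and members in rows by role. Receptors and kinases are nearly uniform, while Irf7 runs from -0.83 in ADX replicate 1 to 0.63 in ADX replicate 2.

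The receptors and their kinases differed little between groups. Ifnar1, a chain of the type I interferon receptor, lay between 124.8 and 133.7 CPM in all 12 libraries, and Jak1 between 300.9 and 326.7 CPM. Ifngr1, the ligand-binding chain of the interferon gamma receptor, was at 34.83 and 34.9 CPM in sham and between 36.63 and 40.77 CPM in the other 10 libraries. Ifngr2, its partner chain, lay between 25.57 and 32.11 CPM. None of these 4 passed the test in any of 9 comparisons. Tyk2, the kinase bound to Ifnar1, was at 34.87 and 35.87 CPM in sham, 35.42 and 34.19 CPM in high Cort, 37.66 and 37.33 CPM in ADX and 37.16 and 35.08 CPM in supplemented ADX. It was at 37.89 and 39.21 CPM in 1 h acute and 41.62 and 41.99 CPM in 3 h acute. Both 3 h acute libraries were above the other 10.

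Excess Cort for 12 days was compared with sham to ask what sustained glucocorticoid does to these genes. No member passed the adjusted threshold, while 112 of 12856 genes did (0.871%). At an unadjusted edgeR p under 0.05, 1 member was higher (4.04% of all genes) and 5 were lower (4.32% of all genes), and DESeq2 called 0 members. The median log2 fold change was -0.09 over the members and 0.01 over all genes tested. Below zero were 27 of 39 members and 5859 of 12856 genes. Between the groups, 16 of 39 members (41.0%) did not overlap, and 36.9% of all genes did not.

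Gbp2, an interferon-inducible guanylate-binding protein, had the smallest adjusted p of this comparison. It was at 7.425 and 6.619 CPM in sham and at 4.309 and 4.935 CPM in high Cort. The high Cort libraries were the lowest of all 12, and ADX, supplemented ADX and the acute groups lay between 5.683 and 6.909 CPM. The log2 fold change was -0.57 ± 0.13 (SE, n = 2 per group), and edgeR's adjusted p was 0.0532, just outside the threshold. Irf1, an activator of interferon and class I genes, was at 7.347 and 7.914 CPM in sham and 6.049 and 5.806 CPM in high Cort. Its log2 fold change was -0.35 ± 0.13, with an adjusted p of 0.38 by edgeR. Irf8, a factor that marks microglia in brain, was at 7.153 and 7.195 CPM in sham and at 4.665 and 6.355 CPM in high Cort (edgeR adjusted p = 0.472).

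Cell type markers differed in the same comparison. The 17 microglia markers summed to 525.8 and 540.8 CPM in sham and 478.9 and 504.1 CPM in high Cort, and 15 of the 17 had a negative fold change, with 0 called by edgeR and 8 lower at an unadjusted p under 0.05. The 14 endothelial markers summed to 758.4 and 741.9 CPM in sham and 610.4 and 635.5 CPM in high Cort, and 4 of the 14 were called lower. Of 5 perivascular macrophage markers tested, 4 were above zero, and Cd163 was called higher (1.33 on the log2 scale, edgeR adjusted p = 0.00126). Oligodendrocyte markers summed to 8551 and 7252 CPM in sham and 5859 and 7015 CPM in high Cort. Those of PVH neurons summed to 527.4 and 723.4 CPM in sham and 455.7 and 409 CPM in high Cort. The part of these cells in the values of Gbp2, Irf1 and Irf8 was not tested. In bulk tissue, fewer cells of a type and less RNA per cell cannot be told apart.

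Removal of the adrenals was compared with sham to ask what the absence of Cort does. No member was called in ADX against sham, where 30 genes were called in all (0.233%). At an unadjusted edgeR p under 0.05, 3 members were lower, beside 7.59% of all genes, and DESeq2 called 0. Of 39 members, 14 (35.9%) had groups that did not overlap, beside 48.4% of all genes. The median log2 fold change of the members was -0.01, with 19 above and 20 below zero, beside 48.3% of all genes above zero. All 11 thalamus markers had a negative fold change here, with a median of -0.52, and their part in the members' values was not tested. Ifit1, whose protein binds foreign RNA, was at 4.276 and 2.087 CPM in sham and at 1.147 and 1.311 CPM in ADX. The groups did not overlap, and the 2 sham libraries stood farther apart than the lower of them stood from ADX. The log2 fold change was -1.39 ± 0.30, with an adjusted p of 0.081 by edgeR. It was -0.79 (edgeR adjusted p = 0.197) without sham replicate 1 and -1.82 (adjusted p = 0.00873) without sham replicate 2.

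High Cort against ADX contrasts both ends of the exposure, and it was the comparison with the most genes called among the 7 other than the acute groups against sham. Of 12856 genes, 742 (5.77%) were called, but 0 of 39 members. At an unadjusted edgeR p under 0.05, 3 members were higher, beside 12.4% of all genes, and 5 were lower, beside 8.54%, and DESeq2 called 0. Groups did not overlap for 20 of 39 members (51.3%) and for 56.0% of all genes. The median was -0.14 over the members against 0.01 over all genes. Below zero were 27 of 39 members and 6058 of 12856 genes. Of the 11 thalamus markers 10 were above zero, with a median of 0.55, and their part was not tested. All 7 class I antigen processing members had a negative fold change, from Psmb8 at -0.40 to smaller values, and none was called. Of 41 other class I antigen processing genes, 30 were below zero too, as were 13 of 17 microglia and 13 of 14 endothelial markers. Of 10 neuron markers, 9 were above zero. The part of these cells was not tested.

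Gbp5, a guanylate-binding protein, was at 2.412 and 2.032 CPM in high Cort and 2.897 and 4.862 CPM in ADX. Its log2 fold change was -0.76 ± 0.24 (edgeR adjusted p = 0.0777). Bst2, or tetherin, which holds budding virus at the cell surface, was at 1.384 and 2.097 CPM in high Cort and 2.203 and 4.094 CPM in ADX. Its fold change was -0.78 ± 0.29 on the log2 scale (edgeR adjusted p = 0.137). For both genes ADX replicate 2 was the highest library of the series. Without ADX replicate 1 edgeR called both (Gbp5 -1.10, adjusted p = 0.0174, and Bst2 -1.17, adjusted p = 0.0293), and without ADX replicate 2 their fold changes were -0.35 and -0.28 with adjusted p of 0.513 and 0.695. Ifit1 had the opposite sign, at 2.767 and 1.968 CPM in high Cort, with a log2 fold change of 0.98 ± 0.31 over ADX (edgeR adjusted p = 0.0873).

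Cort supplement was compared with ADX to ask whether the hormone reverses what its absence does. These groups appear to come from different Cuffdiff runs, so a difference tied to that split cannot be told apart from one between groups. Raw fragments, which are unscaled, were used. No member was called in supplemented ADX against ADX, where only 4 genes were called (0.0311%). At an unadjusted edgeR p under 0.05, 1 member (Ifit1) was higher, beside 2.06% of all genes, and DESeq2 called 0. Groups did not overlap for 8 of 39 members (20.5%) and for 35.0% of all genes. Ifit1 was at 1.793 and 2.232 CPM in supplemented ADX, above both ADX libraries, and its log2 fold change was 0.71 ± 0.31 with an edgeR adjusted p of 1. The members' median was 0.05, with 24 of 39 above zero, beside a median of -0.0004 and 49.8% above zero for all genes.

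Acute Cort was compared with supplemented ADX, with sham, and between its 2 times. Against supplemented ADX, from the same run, 0 members were called at 1 h (background 6 genes, 0.0467%) and 0 at 3 h (background 1 gene, 0.00778%). At an unadjusted edgeR p under 0.05, 2 members were higher and 2 lower at 1 h, in 1 h acute vs supplemented ADX, beside 7.86% and 6.85% of all genes. In 3 h acute vs supplemented ADX the counts were again 2 and 2, beside 6.67% and 5.87% of all genes. DESeq2 called 0 members at either time. Groups did not overlap for 11 members at 1 h (28.2%, and 46.2% of all genes) and for 13 at 3 h (33.3%, and 45.3% of all genes). The members' medians were -0.10 at 1 h and -0.08 at 3 h, with 28 and 31 of 39 below zero. Over all genes the medians were -0.002 and -0.003, with 6521 and 6600 of 12856 below zero. Between 3 h and 1 h, 0 members were called (background 3 genes, 0.0233%), and 1 member (Trim25) was lower at an unadjusted edgeR p under 0.05, beside 5.7% of all genes. DESeq2 called 0, and the times did not overlap for 8 members (20.5%) and 38.1% of all genes.

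Against sham, which crosses the runs, 2 members were called at 1 h and 2 at 3 h. At 1 h the called members were Ifit2, lower, and Irf3, higher, or 2 of 39 where 12.8% of all genes were called (5.56% higher and 7.2% lower). At 3 h they were Ifit1, lower, and Tyk2, higher, or 2 of 39 where 7.98% of all genes were called (3.41% higher and 4.57% lower). Neither count exceeded the share among all genes. Groups did not overlap for 16 members at 1 h (41.0%) and 17 at 3 h (43.6%), beside 57.4% and 53.3% of all genes. The thalamus score was lower in all 4 acute libraries than in both sham libraries, so score and group are nearly aligned. With the score as a covariate edgeR called none of the 4, at log2 fold changes of -0.23 for Ifit2, 0.14 for Irf3, -2.06 for Ifit1 and 0.22 for Tyk2. Those of Ifit1 and Tyk2 were no smaller than without it, and the part of the thalamus in these calls cannot be told apart from that of the group.

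Ifit2, which inhibits translation in interferon-treated cells, was at 15.86 and 16.3 CPM in sham, 16.76 and 15.16 CPM in high Cort, 12.58 and 13.88 CPM in ADX and 12.97 and 15.84 CPM in supplemented ADX. It was at 11.92 and 9.392 CPM in 1 h acute and 11.46 and 13.41 CPM in 3 h acute. The 1 h acute libraries held the lowest value of the 12, and both lay below both sham libraries. The log2 fold change from sham was -0.60 ± 0.13 at 1 h (edgeR adjusted p = 0.0103, DESeq2 adjusted p = 0.0017) and -0.41 ± 0.13 at 3 h (edgeR adjusted p = 0.0658). The edgeR call at 1 h was lost without sham replicate 2 (-0.57, adjusted p = 0.0876) and without 1 h acute replicate 2 (-0.45, adjusted p = 0.0825). With the thalamus score as a covariate the fold change was -0.23 (edgeR adjusted p = 0.996).

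Irf3, the factor that first induces interferon after nucleic acid is sensed, was at 20.02 and 18.85 CPM in sham, 22.76 and 24.39 CPM in 1 h acute and 22.34 and 24.27 CPM in 3 h acute. High Cort, ADX and supplemented ADX lay between 19.41 and 21.98 CPM, below all 4 acute libraries. The log2 fold change from sham was 0.24 ± 0.07 at 1 h (edgeR adjusted p = 0.0464) and 0.23 ± 0.07 at 3 h (adjusted p = 0.0732). The 1 h call was not made by DESeq2 (adjusted p = 0.152) and was lost without sham replicate 1 (adjusted p = 0.0617), sham replicate 2 (0.255) or 1 h acute replicate 2 (0.224).

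Ifit1 was at 1.956 and 1.697 CPM in 1 h acute and 1.112 and 1.182 CPM in 3 h acute, the latter from 23 fragments at the fewest. Its log2 fold change from sham was -1.49 ± 0.33 at 3 h (edgeR adjusted p = 0.0201) and -0.80 ± 0.30 at 1 h (adjusted p = 0.0946). Sham replicate 1, at 4.276 CPM, was the highest of the 12 libraries. Without it the 3 h fold change was -0.89 (edgeR adjusted p = 0.0874), and the call was also lost without 3 h acute replicate 1 (-1.45, adjusted p = 0.091) or replicate 2 (-1.53, adjusted p = 0.145). DESeq2 gave no adjusted p for this gene.

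Tyk2 at 3 h had a log2 fold change of 0.20 ± 0.06 from sham (edgeR adjusted p = 0.0386). Leaving out any of the 4 libraries ended the call, with fold changes of 0.19 to 0.24 and adjusted p of 0.105 to 0.162. DESeq2 gave 0.21 with an adjusted p of 0.102. Against supplemented ADX, in the same run, Tyk2 was higher at 3 h by 0.20 ± 0.06 with an edgeR adjusted p of 0.21.

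**Figure D3:**
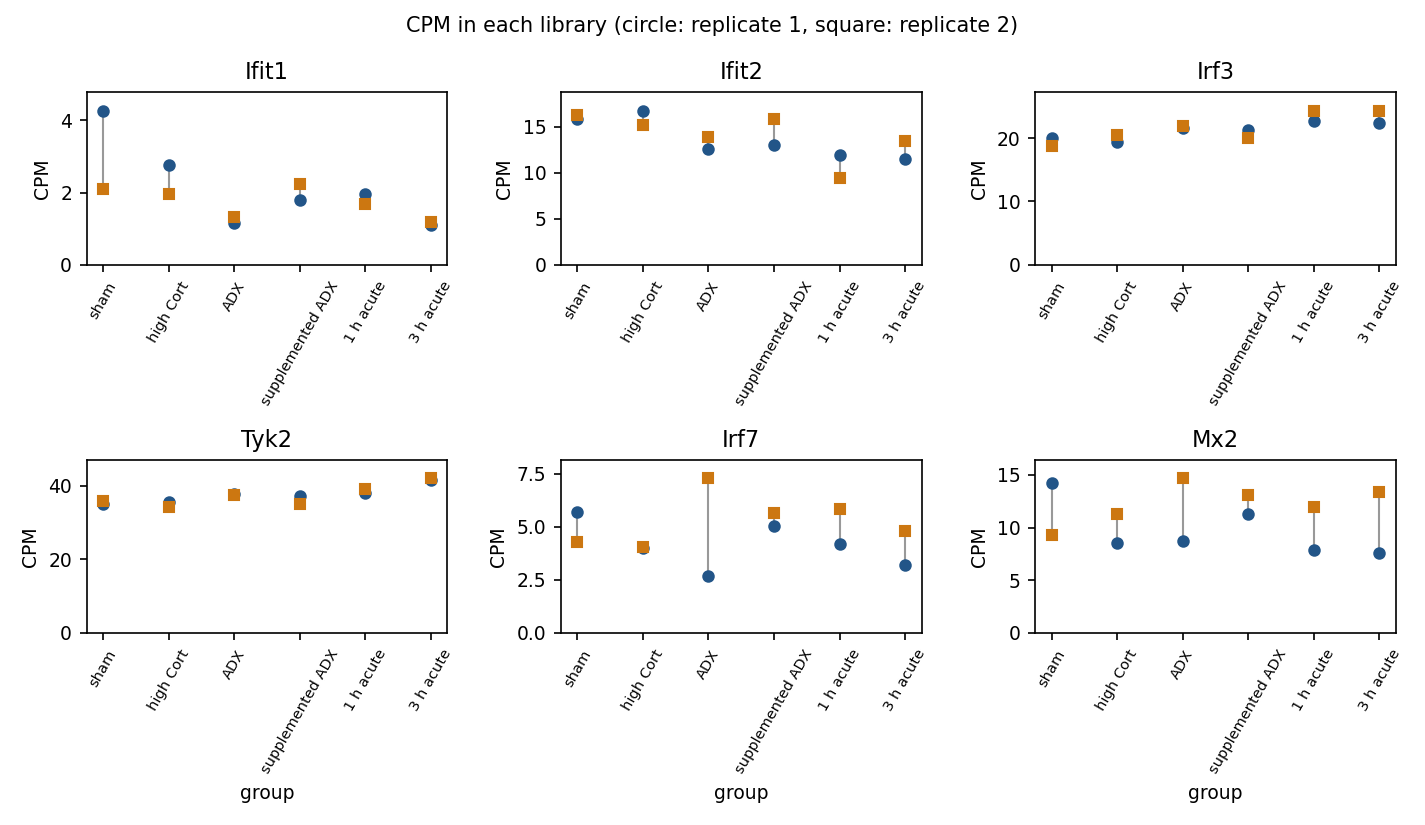
CPM in each library of the 4 members called in any comparison (Ifit1, Ifit2, Irf3, Tyk2) and of Irf7 and Mx2; circles are replicate 1, squares replicate 2, and lines join the libraries of a group. Ifit1 is highest in sham replicate 1 at 4.276 CPM, and the 2 ADX libraries are the lowest and the highest of Irf7.

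The intervals of the fold changes show what these libraries could exclude. In the 9 comparisons, 29 to 33 of the 39 members had a 95% interval that lay within a 2-fold change in either direction. The members whose interval reached 2-fold were mostly low-level effectors. Ifit3 and Oasl, and the transcription factor Irf7, did so in all 9 comparisons. B2m had a log2 fold change of -0.06 from sham in high Cort, with an interval of -0.19 to 0.07. A missing call therefore does not show that these genes were equal.

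**Figure D4:**
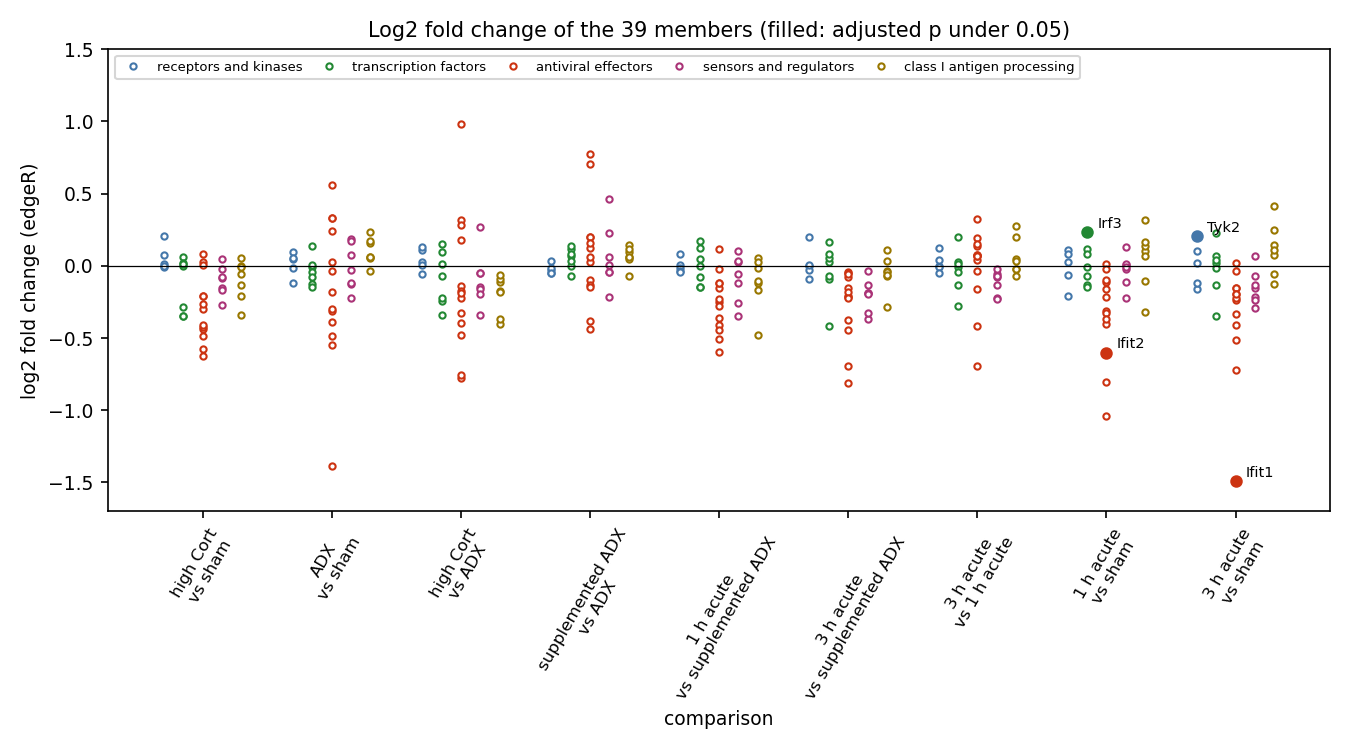
Log2 fold change of each of the 39 members in the 9 comparisons, colored by role, with filled points for an edgeR adjusted p under 0.05. The filled points are Ifit2 and Irf3 at 1 h acute against sham and Ifit1 and Tyk2 at 3 h acute against sham.

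Several members also differed widely between libraries of the same group. Irf7, the factor that amplifies the type I interferon response and is itself induced by interferon, was at 2.656 and 7.293 CPM in the ADX libraries, the lowest and the highest of the 12. Its replicate ratio there was 2.75 (95% Clopper-Pearson interval 2.14 to 3.55, which covers counting error only). It was at 5.714 and 4.281 CPM in sham, 3.993 and 4.064 CPM in high Cort and 5.048 and 5.659 CPM in supplemented ADX. It was at 4.192 and 5.828 CPM in 1 h acute and 3.191 and 4.817 CPM in 3 h acute. The counting interval excluded a ratio of 1 in sham, ADX, 1 h acute and 3 h acute, and included it in high Cort and supplemented ADX. No group comparison called Irf7.

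In ADX, replicate 2 was above replicate 1 by more than counting error in 15 of 39 members, against 8.14% of all genes, and below it in 2 members, against 9.82%. Mx1 and Mx2, dynamin-like GTPases that block viral replication, had ratios of 1.94 (1.52 to 2.48) and 1.68 (1.45 to 1.96). Oas1a, which makes the second messenger of RNase L, was at 1.237 and 2.623 CPM (ratio 2.12, 1.44 to 3.16), and Ifit3 at 0.845 and 1.919 CPM (ratio 2.27, 1.43 to 3.7). Isg15, a ubiquitin-like modifier, was at 0.8148 and 1.695 CPM (ratio 2.08, 1.29 to 3.44). Bst2 had a ratio of 1.86 (1.38 to 2.51). Ifit1 and Ifit2 did not share this difference, with ratios of 1.14 (0.717 to 1.83) and 1.1 (0.962 to 1.26), and nor did Jak1, at 326.7 and 322.2 CPM.

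In sham the difference ran toward replicate 1. It was above replicate 2 by more than counting error in 10 of 39 members, against 12.4% of all genes, and below it in 0 members, against 10.7%. Ifit1, Ifit3, Mx1, Mx2 and Rsad2 (viperin, which makes a chain-terminating nucleotide) had replicate 1 to replicate 2 ratios of 2.05 (1.48 to 2.87), 2.31 (1.47 to 3.69), 1.57 (1.2 to 2.06), 1.53 (1.3 to 1.8) and 1.5 (1.22 to 1.85). In 3 h acute, replicate 2 was the higher in 12 members, against 12.4% of all genes, and the lower in 0, against 9.4%. Mx2 was at 7.542 and 13.36 CPM there, and Rsad2 at 4.834 and 7.726 CPM. In 1 h acute the counts were 10 members, against 15.7% of all genes, and 2 members, against 11.5%. High Cort had 3 and 2 members (9.67% and 10.5% of all genes) and supplemented ADX 4 and 6 members (9.82% and 12.1%). ADX had the most members beyond counting error and high Cort the fewest.

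**Figure D5:**
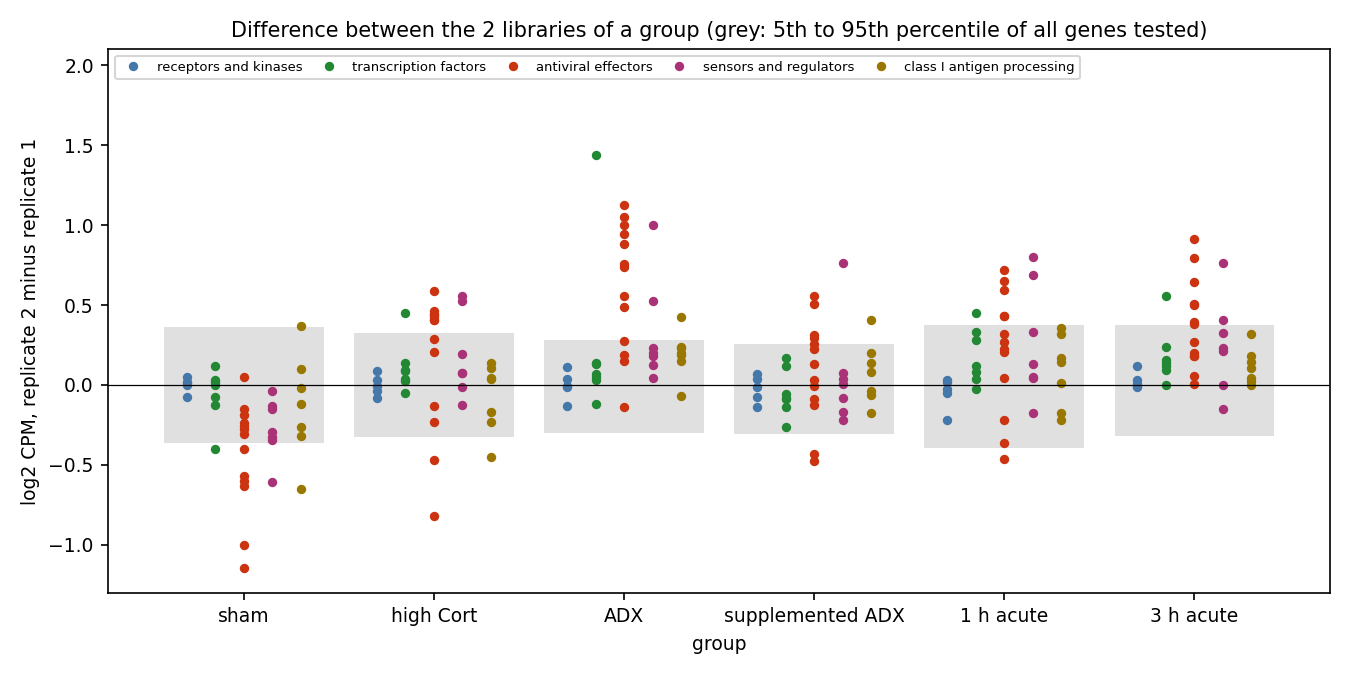
Log2 CPM of replicate 2 minus replicate 1 in each group for the 39 members, colored by role; the grey band spans the 5th to 95th percentile of all genes tested. Antiviral effectors lie mostly below zero in sham and above it in ADX and 3 h acute, and receptors and kinases stay inside the band.

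Irf7 and Mx2 were beyond counting error in each of sham, ADX, 1 h acute and 3 h acute, and no other member was. Irf7 was taken as the reference after its values were seen. Of the 38 other members, 11 (28.9%) had a replicate difference of the same sign as Irf7 in all 6 groups, as had 164 of the other 12855 genes (1.28%), with levels scaled by TMM. The 11 were B2m, Dtx3l, Gbp2, Ifit3, Irf9, Mx2, Oas1a, Oasl, Rsad2, Tap1 and Usp18. They included 6 of 13 antiviral effectors and 0 of 5 receptors and kinases. Scaling to raw totals gave 11 of 38 members and 1.35% of all genes. The sign of Irf7 in high Cort and supplemented ADX lay within counting error, so those groups add little to the match. Signs of the 11 were also often within counting error. The interval of Gbp2 included a ratio of 1 in all 6 groups. That of Tap1 excluded 1 only in 1 h acute, and that of Oasl only in ADX. At the other end, the interval of Mx2 excluded 1 in all 6 groups.

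Members with an ISRE core in the window searched followed Irf7 in all 6 groups in 7 of 14 cases. Members with an entry and no match did so in 2 of 16, Irf9 and Oasl. Of the members shown above, all but Bst2 followed Irf7, and of those with a core but not shown only Dtx3l did. The members share the same libraries, Irf7 was chosen after its values were seen, and no such share was computed over all genes with a core. The counts are therefore not a test, and the part of the ISRE was not tested. Among 56 other tested interferon-stimulated genes, a list without any member, 6 (10.7%) followed Irf7 in all 6 groups. They were Eif2ak2, Lgals3bp, Oas2, Rtp4, Slfn3 and Uba7. In the same list, 14 of 56 genes were higher in replicate 2 in sham (51.8% of all genes) and 32 in high Cort (52.1%). In ADX 41 genes were (51.3% of all genes), and in supplemented ADX 28 (49.5%). At 1 h after acute Cort 42 genes were (50.1% of all genes), and at 3 h 43 (50.9%).

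Sums of cell type markers are given for the sham and ADX libraries, and their part in the replicate differences was not tested. In the ADX libraries the microglia markers summed to 536.5 and 527.5 CPM, the endothelial markers to 733.4 and 750.3 CPM, the neutrophil and monocyte markers to 16.48 and 18.97 CPM and the lymphocyte markers to 13.28 and 14.81 CPM. In ADX, replicate 2, where the antiviral members were higher, thus had the higher endothelial, neutrophil and monocyte, and lymphocyte sums and the lower microglia sum. Only 2 of 16 lymphocyte markers and 2 of 9 neutrophil and monocyte markers reached 0.5 CPM, so these 2 sums are no measure of such cells. In the sham libraries the sums were 525.8 and 540.8 CPM for microglia, 758.4 and 741.9 CPM for endothelial cells, 16.75 and 17.81 CPM for neutrophils and monocytes and 8.008 and 10.43 CPM for lymphocytes. Sham replicate 1, where the antiviral members were higher, had the higher endothelial sum and the lower value of the other 3. The sham sums also differed for thalamus (1787 and 2293 CPM), oligodendrocytes (8551 and 7252 CPM) and PVH neurons (527.4 and 723.4 CPM). They were closer for neurons (7025 and 7232 CPM) and astrocytes (8129 and 7971 CPM). In ADX the thalamus sums were 1440 and 1588 CPM, those of oligodendrocytes 7526 and 7261 CPM and those of PVH neurons 715.8 and 713.8 CPM. The labels do not say whether the replicate numbers tie a library of 1 group to one of another.

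The other genes of the pathway were described from 6 lists without the members. Together they held 167 tested genes. In high Cort against sham 1 of the 167 was called (0.599%, beside 0.871% of all genes), Lifr, a receptor chain of the interleukin-6 family, at 0.31 higher on the log2 scale. High Cort against ADX called 6 higher and 3 lower (5.39%, beside 5.77% of all genes). Pooled over the 6 lists, no share in this or the next paragraph exceeded that of all genes, but single lists did. In high Cort against ADX, the list of 29 JAK kinases, STAT factors and feedback inhibitors had 3 called higher and 2 lower. That is above the share of all genes. The lists were chosen with earlier results known and were not tested as sets. The genes named are therefore single calls and nothing is read from the lists. In high Cort against ADX, Ctss, the lysosomal protease that trims the class II chaperone, rose by 0.55. Ctss is also 1 of the 17 microglia markers, of which 13 were below zero in that comparison. Nfkbia, the inhibitor of NF-κB, rose by 0.43, and Socs6, a feedback inhibitor of cytokine receptors, rose by 0.56. Ptprc, the leukocyte marker CD45, was lower by a log2 fold change of -0.51, and Pdia3, a chaperone of the class I loading complex, by -0.16.

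At 1 h acute against sham 10 of the 167 were called higher and 7 lower (10.2%, beside 12.8% of all genes). At 3 h acute against sham 3 were higher and 6 lower (5.39%, beside 7.98% of all genes). The list of 29 interferon induction and sensing genes had 5 called higher and 3 lower at 1 h, and 2 and 2 at 3 h. Both were above the share of all genes. The JAK and STAT list of 29 had 3 and 2 at 1 h, also above it, and 0 and 1 at 3 h, below it. These comparisons cross the runs, all 11 thalamus markers were lower in both, and adding the thalamus score to the model left 0 genes called at 1 h and 3 at 3 h. Both times edgeR called the adaptors Traf3 and Mavs higher and the adaptor Tank and the kinase Tbk1 lower. At 1 h their log2 fold changes were 0.39, 0.27, -0.40 and -0.31. At 3 h they were 0.37, 0.30, -0.37 and -0.27. Both comparisons share the sham libraries. Socs6 was lower at both times (-0.47 and -0.48). RT1-A2, a class I heavy chain, was higher at both (0.44 and 0.42), but it has near-identical neighbours and its fragments may be split among them. None of the 167 was called in the other 5 comparisons by edgeR.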

How the data were processed

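The members, the gene lists and the comparisons were chosen with earlier results of these data known. Each deposited table is a Cuffdiff read group file of 1 library. Libraries were made with a TruSeq RNA kit, per the labels' protocols, and the submitters' processing notes name the rat build rn6, Cufflinks 2.2.1, TopHat2 2.1.1 and CASAVA 1.8.2. For the annotation and the strand setting, nothing is given in the sources used here. Per the file headers, the raw fragments of each gene are unscaled, and their unit is that of expected counts: 0.751% of values, none of a member, had a fractional part, and rounding moved them by 0.5 or less. The condition codes q1, q2 and q3 of the deposited tables mark sham, high Cort and ADX and recur in the other 3 groups. From this, 2 separate runs were inferred. FPKM values were scaled by the authors within a run, so they only describe levels between genes. CPM was computed here from raw fragments and library totals. Genes of the same family (Ifit, Mx, Oas, Gbp) and overlapping neighbours may share fragments.

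Tests were run in R 4.3.3 with edgeR 4.0.16: filterByExpr (minimum count 10, total 15) kept 12856 genes, TMM scaled the libraries (factors 0.969 to 1.02), and all 12 libraries entered 1 quasi-likelihood fit, robust, with the 6 groups as terms (6 residual degrees of freedom, median prior 8.9). Tests were 2-sided, with Benjamini-Hochberg adjustment over all genes of a comparison. Called means an adjusted p under 0.05. Permuting 2 libraries against 2 gives no p below 0.333. Every member is accounted for; called members are given in every library, and from each other list the called genes, at most 4 per list and comparison, of which the text gives a part. Ratios of replicates carry 95% Clopper-Pearson intervals from fragment counts. Promoters were matched by symbol to RefSeq entries of GRCr8. The model was tested on 5 data sets simulated for high Cort against sham at each fold, where 3.14% to 13.5% (1.5-fold), 3.76% to 8.47% (2-fold) and 4.06% to 9.18% (3-fold) of calls were false. Alternatives were RLE factors, no filter, a stricter filter (1 CPM in 4 libraries), DESeq2 1.42.0, a fit of the 4 libraries compared, a replicate block, leaving out each library (the lone library of its group is then assumed to vary like the other groups), and, chosen after seeing the data, the thalamus score as a covariate.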

Additional observations from a re-analysis of the deposited data

How the results depend on the processing

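The counts of called members in the 9 comparisons were recomputed under the alternatives, where 75 stayed within 1.5 times the reported count and 24 moved. Outside 1 h and 3 h acute against sham the reported count was 0, and staying at 0 was labelled as unmoved. The 75 therefore mostly stand for comparisons without a call and do not measure how stable the calls were. The cause of a move was not tested except where fewer samples entered. High Cort against sham went from 0 to 1 called member (Gbp2) with RLE factors, no filter, the stricter filter or the thalamus covariate. High Cort against ADX called 3 members (Ifih1, Ifit1, Ifit2) in the fit of 4 libraries. Counts at 1 h acute against sham moved from 2 to 0 in the fit of 4 libraries, 1 (Ifit2) with DESeq2 and 0 with the thalamus covariate, and at 3 h from 2 to 1 (Ifit2), 0 and 0. Leaving out a library gave 0 to 1 for ADX against sham, 0 to 2 for high Cort against ADX, 0 to 1 for 1 h acute against supplemented ADX, 0 to 4 for 1 h acute against sham and 0 to 1 for 3 h acute against sham. Over all genes tested, deviations of same-numbered libraries correlated at -0.189 to 0.102 between groups, and 1 of 15 pairs of groups was above 0.1. The labels do not say whether the numbers pair libraries, and these correlations cannot exclude a link in a smaller set of genes. With a replicate block the called members were 1 at 1 h (Ifit2) and 1 at 3 h (Ifit1) against sham. Tap1 at 1 h against sham, 0.32 and not called, turned to -0.13 with the thalamus covariate. Under that covariate, which is nearly aligned with these contrasts, the genes called fell from 1641 to 0 at 1 h and from 1026 to 3 at 3 h against sham, while the fold changes of Ifit1 (-2.06) and Tyk2 (0.22) at 3 h were no smaller. Over all alternatives, the genes called ranged from 23 to 167 for high Cort against sham, 4 to 148 for ADX against sham, 157 to 1653 for high Cort against ADX, 0 to 33 for supplemented ADX against ADX, 1 to 624 and 0 to 154 for 1 h and 3 h acute against supplemented ADX, and 0 to 35 between the times. Depth limits genes under 5 CPM, for which 5 simulations of high Cort against sham recovered 72.1% to 79.5% of 3-fold changes and 5.41% to 15.7% of 1.5-fold changes.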
